A study of Mus musculus with 8 samples.

Results

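The genes examined encode 7 peptidases of the kidney's brush border and 3 receptors that take up filtered protein there. They are Mep1a, Mep1b, Mme, Anpep, Dpp4, Enpep, Ggt1, Lrp2, Cubn and Amn. They were chosen by name, by matching these symbols to the Ensembl gene identifiers of the deposited expression table, and all 10 were found among its 34450 genes. Kidneys came from C57BL/6J mice, 8 weeks old, and their RNA was taken on day 3 of recovery from ischaemia-reperfusion injury (IRI), in which renal blood flow is stopped and then restored. HxIRI names the group kept in low oxygen before the injury (hypoxia libraries 1 to 4) and IRI the group kept in normal oxygen before it (normoxia libraries 5 to 8). All 8 kidneys were therefore injured, and no uninjured kidney was analysed here. The labels do not say that each library came from a separate mouse, so every p-value reflects the variation among libraries alone, part of which could be technical.

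The brush border is the carpet of microvilli on the urinary face of the proximal tubule. Its peptidases are membrane enzymes that cut filtered peptides and glutathione into amino acids, which transporters beside them then absorb. Its endocytic receptors bind filtered albumin, vitamin carriers and hormones and carry them into the cell in clathrin-coated vesicles. Both sets of proteins are regarded as signs of a mature proximal tubule, and loss of the brush border is a classical feature of ischaemic injury. In whole-kidney RNA, fewer proximal tubule cells and less RNA per cell cannot be told apart.

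Values were FPKM, fragment counts scaled to the length of the transcript and to the mapped fragments of the library. All 10 genes passed the minimum of 0.5 FPKM on average over the 8 libraries that was set for testing, with means between 4.71 FPKM (Dpp4) and 109.5 FPKM (Ggt1). Changes were tested on log2(FPKM + 0.5) with limma over 14444 genes, and log2 changes below are hypoxia minus normoxia. Across the tested genes the median log2 change was -0.14 as deposited and 0.034 after TMM scaling, which equalises libraries on the bulk of their genes. A change relative to that median is thus more positive by 0.14 than the value given. Over all genes 33.6% of the calls as deposited were rises, against 49.6% with TMM scaling.

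The libraries differed in ways that bear on every value below. Ribosomal transcripts took between 13.5% and 72.5% of the assigned fragments, and protein-coding transcripts between 20.3% and 60.3%. Hypoxia libraries 3 and 4 had 20.3% and 21.5% in protein-coding transcripts, against 42.5% and 56.7% in hypoxia libraries 1 and 2. Depth was estimated, from the spacing of the smallest values, at roughly 8400000 to 14600000 fragments per library. Normoxia library 5 stood apart from its group by transcript length, as described beside Ggt1 and Amn. The kidney's own markers were present in all 8 libraries, with Slc34a1, the phosphate transporter of the proximal tubule, between 37.6 and 368.7 FPKM.

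As deposited, 9 of the 10 genes had a positive change and 1 of the 10 passed the test, the meprin gene Mep1b. None passed as lower. At an unadjusted p under 0.05 in limma, Mep1a (0.033) and Anpep (0.0208) joined Mep1b as higher and none was lower, against 2.52% of all tested genes higher and 6.84% lower at that threshold. Over all tested genes 0.907% were called, 0.305% higher and 0.602% lower. The median change of the 10 genes was 0.83, against -0.14 for all tested genes. Ggt1 and Enpep had a positive log2 change although their mean FPKM was lower after hypoxia (83.9 against 135.1, and 10.52 against 10.64). For 4 genes, Mep1a, Mep1b, Anpep and Lrp2, every hypoxia library lay above every normoxia library, as was so for 1.86% of all tested genes (4.92% in either direction). Without normoxia library 7 none of the 10 passed as deposited, and of all 14071 genes tested there 11 passed as higher and 4 as lower. The number that passed as higher was 2 of the 10 with TMM scaling (1.18% of all tested genes), 3 with quantile normalization (1.94%), 3 with scaling to protein-coding fragments (1.02%) and 2 with removal of the trend with length (1.38%). With normoxia library 5 left out as well, 4 of the 10 passed with TMM scaling (4.43%) and 4 with removal of the trend (4.97%).

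**Figure D1:**
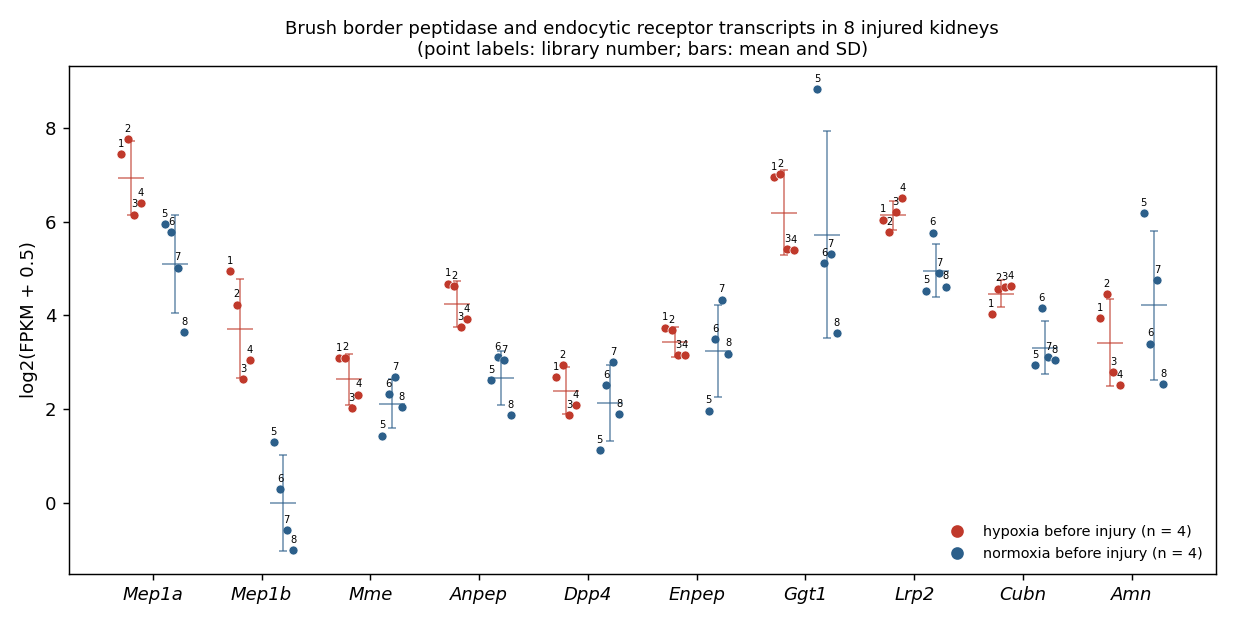
log2(FPKM + 0.5) of each of the 10 genes (horizontal axis) in the 8 libraries, as deposited. Points are single libraries with their number, and bars give the mean and SD of 4 libraries. Hypoxia points lie above all normoxia points for Mep1a, Mep1b, Anpep and Lrp2, and normoxia library 5 lies far above its group for Ggt1 and Amn.

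Promoter sequences are shown for 4 genes, the peptidase genes Mep1a and Anpep and the receptor genes Lrp2 and Cubn, because these had the largest positive changes after Mep1b. They come from RefSeq on GRCm38.p6, whose table held 14 start windows for 9 of the 10 genes. Each line gives the bases before a start that lie outside annotated exons of the gene, 5′ to 3′ on the gene's strand, with CG dinucleotides in capitals.
Mep1a, chr17:43502813-43503023, minus strand: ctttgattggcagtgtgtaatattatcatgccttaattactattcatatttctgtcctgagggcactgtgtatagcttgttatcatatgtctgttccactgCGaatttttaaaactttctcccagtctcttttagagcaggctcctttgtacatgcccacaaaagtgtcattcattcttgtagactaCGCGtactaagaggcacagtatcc
Anpep, chr7:79848211-79848460, minus strand: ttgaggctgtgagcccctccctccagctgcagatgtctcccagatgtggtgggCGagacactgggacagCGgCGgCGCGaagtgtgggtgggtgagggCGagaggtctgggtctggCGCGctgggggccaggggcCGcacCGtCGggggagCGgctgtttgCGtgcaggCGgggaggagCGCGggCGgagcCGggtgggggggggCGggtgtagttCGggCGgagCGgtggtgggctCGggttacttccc
Lrp2, chr2:69586066-69586279, minus strand: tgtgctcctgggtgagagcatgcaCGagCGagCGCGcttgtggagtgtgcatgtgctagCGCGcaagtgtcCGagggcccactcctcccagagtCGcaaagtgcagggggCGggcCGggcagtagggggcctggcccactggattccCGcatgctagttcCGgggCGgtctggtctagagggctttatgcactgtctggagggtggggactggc
Cubn, chr2:13491877-13492126, minus strand: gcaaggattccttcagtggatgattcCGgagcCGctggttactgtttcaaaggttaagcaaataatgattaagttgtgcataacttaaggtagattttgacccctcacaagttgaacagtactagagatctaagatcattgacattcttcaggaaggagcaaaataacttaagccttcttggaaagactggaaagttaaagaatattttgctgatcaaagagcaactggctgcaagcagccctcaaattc
The stretch of Anpep lies between annotated exons of its longer gene model in GENCODE M21. The 300-base windows from which these come, 250 bases before and 50 after the start, had 42.3% G and C in Mep1a, 44.3% in Cubn, 65.0% in Lrp2 and 72.3% in Anpep. The median of all 32851 windows was 52.7%. The windows held 6 CG dinucleotides in Mep1a, 5 in Cubn, 20 in Lrp2 and 28 in Anpep, against a median of 7. A site of HNF4, a transcription factor of the proximal tubule, was searched on both strands as CAAAGTCCA. It did not occur in the 14 windows of these genes, which says only that these letters are not there, and it occurred in 0.475% of all windows. The TATA box letters TATAAA, also on both strands, occurred in 3 of the 14 windows, those of Dpp4, Enpep and 1 of Ggt1, and in 13.6% of all windows.

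The meprins are zinc metalloproteases that cut peptides and matrix proteins, with the alpha subunit encoded by Mep1a and the beta subunit by Mep1b. Mep1b (ENSMUSG00000024313, chr18:21061923-21100199 on GRCm38, plus strand) was at 30.2, 18.3, 5.73 and 7.82 FPKM in hypoxia libraries 1 to 4. It was at 1.95, 0.73 and 0.17 FPKM in normoxia libraries 5, 6 and 7 and listed at 0 in normoxia library 8. The groups did not overlap, and normoxia library 5 was the highest of its group. Mep1b averaged 15.5 ± 11.2 and 0.713 ± 0.882 FPKM (SD, n = 4 each) and rose by a log2 change of 3.71 ± 0.60 (SE, limma adjusted p = 0.00306). The normoxia values rested on an estimated 70, 18, 7 and 0 fragments, and the hypoxia values on 127 to 954. The call of Mep1b was lost without normoxia library 7 (log2 change 3.52, limma adjusted p = 0.063) and without the filter on low values (3.71, limma adjusted p = 0.269). With TMM scaling it was also lost without hypoxia library 2, 3 or 4 or normoxia library 7 or 8 (limma adjusted p between 0.0595 and 0.0847). Of all tested genes, between 8 and 12 passed as higher in those TMM settings, against 170 with TMM scaling of all 8 libraries. As deposited, 11 passed as higher without normoxia library 7 and 0 without the filter. The call of Mep1b was lost in 7 of 30 other settings, within a range of limma adjusted p from 1.42e-05 to 0.269. The size of the change depended on the constant added before the logarithm, with 4.77 for 0.1 FPKM and 3.14 for 1 FPKM.

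Mep1a (ENSMUSG00000023914, chr17:43474324-43502812, minus strand) was far more abundant, at 174.0, 216.5, 70.7 and 83.5 FPKM in hypoxia libraries 1 to 4 and at 61.3, 54.2, 32.0 and 12.0 FPKM in normoxia libraries 5 to 8. The groups did not overlap, but hypoxia library 3 and normoxia library 5 were close. Mep1a averaged 136.1 ± 70.6 and 39.8 ± 22.4 FPKM (SD, n = 4 each), and its log2 change of 1.84 ± 0.82 (SE) did not pass as deposited (limma adjusted p = 0.453). Most of the spread in the hypoxia group lay between libraries 1 and 2 and libraries 3 and 4. Relative to the protein-coding share of each library, Mep1a stood at 409.3, 381.6, 347.4 and 389.0 in the hypoxia libraries and at 108.0, 189.4, 53.0 and 55.7 in the normoxia libraries. On that scale the 4 hypoxia libraries were nearly level. The groups did not overlap on it for 3 of the 10 genes (Mep1a, Mep1b and Anpep, against 5.74% of all tested genes in that direction). With scaling to protein-coding fragments, which is similar but not identical to that scale, Mep1a passed (log2 change 2.02, limma adjusted p = 0.0443). It also passed with quantile normalization (2.22, adjusted p = 0.0273) and, without normoxia library 5, with TMM scaling (2.43, adjusted p = 0.0187), but not with TMM scaling of all 8 libraries (2.06, adjusted p = 0.0879), each in limma.

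**Figure D2:**
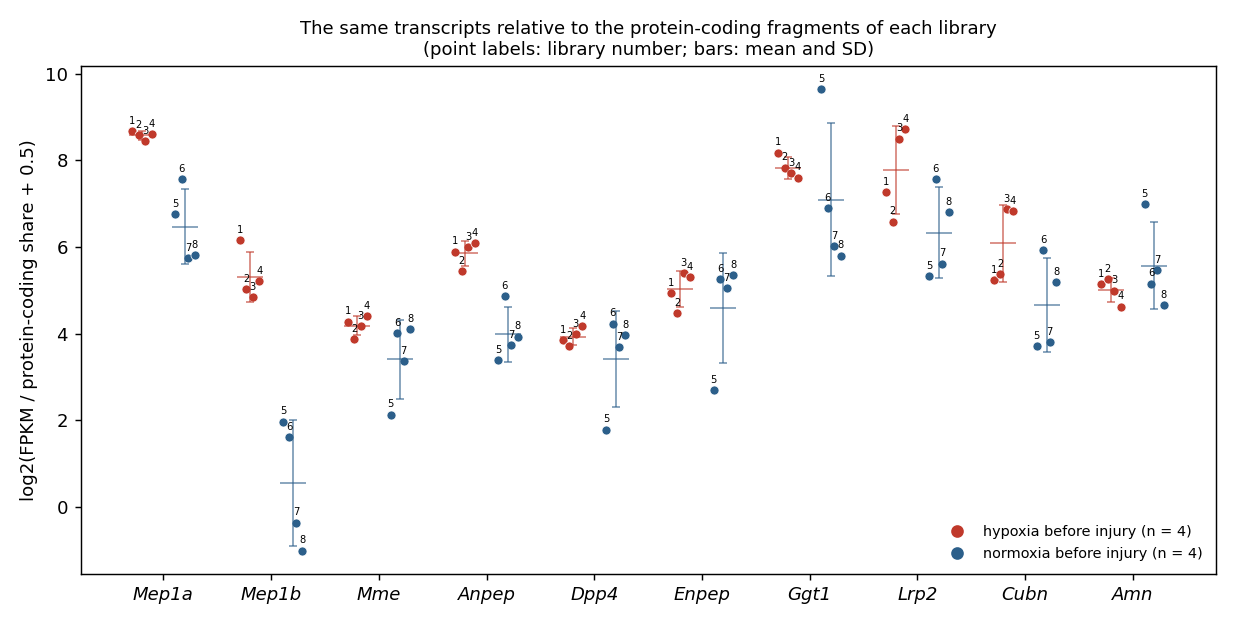
The same 10 genes with each FPKM divided by the protein-coding share of its library, as log2(value + 0.5). The 4 hypoxia points of Mep1a, Anpep and Ggt1 draw together, while those of Lrp2 and Cubn move apart, with libraries 3 and 4 above 1 and 2.

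The beta subunit transcript was scarcer than the alpha subunit transcript in every library. The FPKM of Mep1b divided by that of Mep1a was 0.173, 0.0845, 0.0811 and 0.0937 in hypoxia libraries 1 to 4 and 0.0318, 0.0135, 0.00532 and 0 in normoxia libraries 5 to 8. The groups did not overlap in this plain ratio, which does not depend on how the libraries are scaled. On the log2 scale with 0.5 FPKM added to both genes, the ratio was higher by 1.87 ± 0.35 (SE, n = 4 each) after hypoxia. With 0.1 FPKM added the difference was 2.91 and with 1 FPKM it was 1.31. A ratio with a constant added does depend on scale where Mep1b is near 0. With 0.5 FPKM added, normoxia library 8 stood at -4.64 and normoxia library 5 at -4.66, although their plain ratios were 0 and 0.0318. The two-sided exact permutation p was 0.0286, the smallest that 4 against 4 libraries can give. Adjusted over the 5 ratios compared it was 0.143 (exact permutation test, Benjamini-Hochberg), so the difference did not pass. A ratio that reaches the smallest possible p alone cannot pass this adjustment, so this outcome does not decide whether the ratio differed.

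Anpep encodes aminopeptidase N, which removes neutral residues from the end of peptides, and Enpep encodes aminopeptidase A, which removes acidic ones. In the breakdown of angiotensin the second enzyme acts before the first. Anpep (ENSMUSG00000039062, chr7:79821803-79861059, minus strand) was at 25.1, 24.3, 12.9 and 14.6 FPKM in hypoxia libraries 1 to 4. In normoxia libraries 5 to 8 it was at 5.69, 8.18, 7.77 and 3.18 FPKM. Every hypoxia value was higher than every normoxia value, and library 5 was within the range of its group. Means were 19.2 ± 6.37 FPKM in HxIRI and 6.21 ± 2.29 FPKM in IRI (SD, 4 libraries each), and the log2 change of 1.57 ± 0.64 (SE) did not pass as deposited (limma adjusted p = 0.356). Anpep passed in limma with TMM scaling (1.79, adjusted p = 0.0278), with quantile normalization (1.83, adjusted p = 0.0191), with scaling to protein-coding fragments (1.74, adjusted p = 0.0301) and after removal of each library's trend with transcript length (1.72, adjusted p = 0.0205). With TMM scaling its call was lost when any of hypoxia libraries 1 to 4 or normoxia library 7 or 8 was left out, with limma adjusted p between 0.0794 and 0.134. In those settings between 8 and 49 of all tested genes passed as higher, against 170 with TMM scaling of all 8 libraries.

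Enpep (ENSMUSG00000028024, chr3:129269175-129332720, minus strand) did not follow Anpep. It was at 12.9, 12.4, 8.45 and 8.41 FPKM in hypoxia libraries 1 to 4 and at 3.42, 10.8, 19.7 and 8.61 FPKM in normoxia libraries 5 to 8. The groups overlapped, with both the lowest and the highest value in the normoxia group. Its log2 change was 0.19 ± 0.65 (SE, limma adjusted p = 0.999), and it was -0.24 without normoxia library 5. The FPKM of Enpep divided by that of Anpep was 0.513, 0.508, 0.654 and 0.577 in the hypoxia libraries and 0.601, 1.32, 2.54 and 2.71 in normoxia libraries 5 to 8. Normoxia library 5 lay within the hypoxia range and the other 3 above it. The log2 ratio differed by -1.39 ± 0.47 (SE, n = 4 each), with an exact permutation p of 0.0571 and 0.143 adjusted over the 5 ratios (two-sided). It differed by -1.80 without normoxia library 5 and by -1.41 after removal of the length trend. In both settings the exact permutation p was 0.0286, the smallest possible, and 0.0714 after adjustment, so the ratio did not pass.

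Mme encodes neprilysin, which degrades natriuretic and other small peptides, and Dpp4 encodes dipeptidyl peptidase 4, which trims incretins and chemokines. Mme (ENSMUSG00000027820, chr3:63241537-63386030, plus strand) was at 8.03, 8.09, 3.59 and 4.47 FPKM in hypoxia libraries 1 to 4 and at 2.21, 4.48, 5.95 and 3.61 FPKM in normoxia libraries 5 to 8. Its log2 change was 0.51 ± 0.56 (SE, limma adjusted p = 0.945). Dpp4 (ENSMUSG00000035000, chr2:62330073-62412231, minus strand) was at 5.93, 7.19, 3.15 and 3.76 FPKM in the hypoxia libraries. It was at 1.68, 5.24, 7.52 and 3.24 FPKM in the normoxia libraries, a log2 change of 0.26 ± 0.57 (SE, limma adjusted p = 0.999), and -0.08 without normoxia library 5. The groups overlapped for both genes. After TMM scaling Mme was between 5.46 and 6.65 in the hypoxia libraries and between 2.42 and 4.46 in the normoxia libraries, without overlap, but did not pass (log2 change 0.72, limma adjusted p = 0.219). Groups did not overlap on that scale for 4 of the 10 genes, Mep1a, Mep1b, Mme and Anpep, and for 7.22% of all tested genes in the same direction.

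Mme and Enpep are also made by podocytes, and Dpp4 and Anpep by some leukocytes. None of 8 podocyte markers passed in either direction, with a summed level of 31.0 to 56.8 FPKM after hypoxia and 28.3 to 73.8 FPKM after normoxia. Nphs1, which encodes the slit diaphragm protein nephrin, was present in all 8 libraries, at 1.60 to 5.38 FPKM. Of 12 macrophage and monocyte markers none passed as deposited, and their summed level was 23.0 to 114.9 FPKM after hypoxia and 139.1 to 839.5 FPKM after normoxia, without overlap. With TMM scaling 3 of them fell, as did 3 as deposited without normoxia library 8, and 8 did with TMM scaling and without normoxia library 5. Over all tested genes 173 of 14444, 237 of 14522 and 608 of 14414 passed as lower in those settings, in that order. Adgre1, which encodes a surface antigen of macrophages, was between 0.21 and 1.60 FPKM after hypoxia and between 2.08 and 7.18 FPKM after normoxia. Of 11 lymphocyte markers 2 were high enough to be tested, and the summed level of the list was at most 9.93 FPKM. The part of these cells in the values of the peptidase genes was not tested.

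Ggt1 encodes gamma-glutamyltransferase 1, which starts the breakdown of glutathione outside the cell. Ggt1 (ENSMUSG00000006345, chr10:75561604-75586200, plus strand) was at 122.8, 128.8, 42.4 and 41.5 FPKM in hypoxia libraries 1 to 4. Normoxia library 5 held 455.6 FPKM, and normoxia libraries 6, 7 and 8 held 34.0, 39.0 and 11.9 FPKM. The highest and the lowest value were thus both in the normoxia group. The log2 change was 0.48 ± 0.95 (SE, limma adjusted p = 0.999). Without normoxia library 5, Ggt1 passed in limma with TMM scaling (1.82, adjusted p = 0.0211) and with removal of the trend with length (1.70, adjusted p = 0.0176), but not as deposited (1.51, adjusted p = 0.525). Without normoxia library 8 the change was -0.22.

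Normoxia library 5 differed from the other 3 normoxia libraries in a way that followed transcript length over all genes. The median log2 difference between it and their mean was 0.55 in the 1796 tested genes with 1 to 2 kb of exons and -0.99 in the 1078 with over 10 kb. Among the 10 brush border genes the short ones were high in it and the long ones low. The differences were 2.62 for Amn (1843 bases of exons), 1.72 for Mep1b (2625 bases), 4.15 for Ggt1 (3411 bases) and 1.14 for Mep1a (3452 bases). Anpep, at 4135 bases, differed by -0.05. The longer genes gave -1.70 for Enpep, -1.35 for Dpp4, -0.91 for Mme, -0.49 for Cubn and -0.56 for Lrp2. Ggt1, Amn, Mep1b and Mep1a lay above the middle 50% of genes of their length class, Cubn and Lrp2 also did, and Enpep and Dpp4 lay below it. The part of length in the group differences of these genes was not tested beyond the removal of the length trend.

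**Figure D3:**
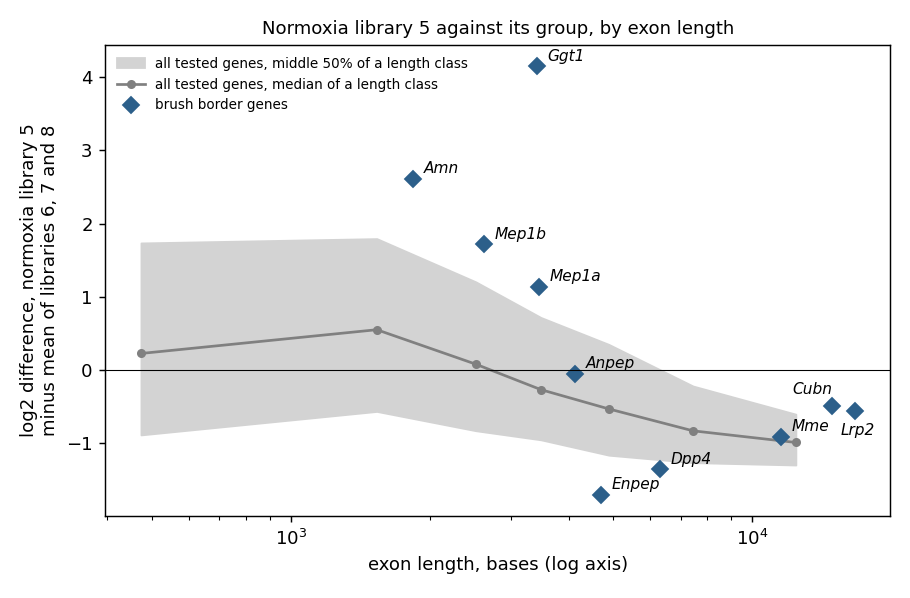
Log2 difference between normoxia library 5 and the mean of normoxia libraries 6, 7 and 8 (vertical axis) against exon length (log axis). Diamonds are the 10 brush border genes, the grey line is the median of all tested genes by length class and the band their middle 50%. The line falls from 0.55 at 1 to 2 kb to -0.99 over 10 kb, and Ggt1 lies farthest above it.

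Lrp2 encodes megalin, a giant receptor of the low-density lipoprotein receptor family, Cubn encodes cubilin, which has no membrane span of its own, and Amn encodes amnionless, which anchors cubilin and brings it to the surface. Lrp2 (ENSMUSG00000027070, chr2:69424340-69586065, minus strand) was at 65.4, 54.3, 73.4 and 90.3 FPKM in hypoxia libraries 1 to 4 and at 22.6, 53.9, 29.3 and 24.0 FPKM in normoxia libraries 5 to 8. The groups did not overlap as deposited, but hypoxia library 2 and normoxia library 6 were almost level. They overlapped on both other scales, with these libraries at 95.7 and 188.6 over the protein-coding share and at 39.8 and 53.7 after TMM scaling. Lrp2 averaged 70.9 ± 15.2 and 32.5 ± 14.6 FPKM (SD, n = 4 each), and its log2 change of 1.18 ± 0.75 (SE) did not pass (limma adjusted p = 0.756). Cubn (ENSMUSG00000026726, chr2:13276338-13491813, minus strand) was at 15.9, 23.3, 23.9 and 24.3 FPKM in the hypoxia libraries. In the normoxia libraries it was at 7.19, 17.3, 8.12 and 7.73 FPKM, so that normoxia library 6 overlapped with hypoxia library 1. Cubn averaged 21.9 ± 3.99 and 10.1 ± 4.85 FPKM (SD, n = 4 each), with a log2 change of 1.15 ± 0.66 (SE, limma adjusted p = 0.683). Both receptor genes kept a positive change in all 30 other settings, between 1.03 and 1.71 for Lrp2 and between 0.96 and 1.68 for Cubn, and passed in none of them (lowest limma adjusted p = 0.0617 and 0.0636).

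The FPKM of Cubn divided by that of Lrp2 was 0.243, 0.430, 0.325 and 0.269 in hypoxia libraries 1 to 4 and 0.319, 0.322, 0.277 and 0.322 in normoxia libraries 5 to 8. The normoxia values were close together and lay inside the wider hypoxia range. The log2 ratio differed by -0.03 ± 0.18 (SE, n = 4 each; two-sided exact permutation p = 0.83, also after adjustment over the 5 ratios).

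Amn (ENSMUSG00000021278, chr12:111271095-111276426, plus strand) did not share this pattern. It was at 14.9, 21.3, 6.39 and 5.19 FPKM in hypoxia libraries 1 to 4 and at 71.9, 10.1, 26.4 and 5.29 FPKM in normoxia libraries 5 to 8. The groups overlapped, with the highest value in normoxia library 5. The log2 change was -0.79 ± 0.78 (SE, limma adjusted p = 0.921), -0.14 without normoxia library 5 as deposited and 0.15 without it with TMM scaling. The FPKM of Amn divided by that of Cubn was 0.937, 0.914, 0.267 and 0.213 in the hypoxia libraries and 9.99, 0.580, 3.26 and 0.684 in the normoxia libraries. The log2 ratio differed by -1.94 ± 1.09 (SE, n = 4 each), with an SD of 1.08 in the hypoxia group and 1.89 in the normoxia group. The groups overlapped in this ratio (two-sided exact permutation p = 0.171, and 0.286 adjusted over the 5 ratios).

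**Figure D4:**
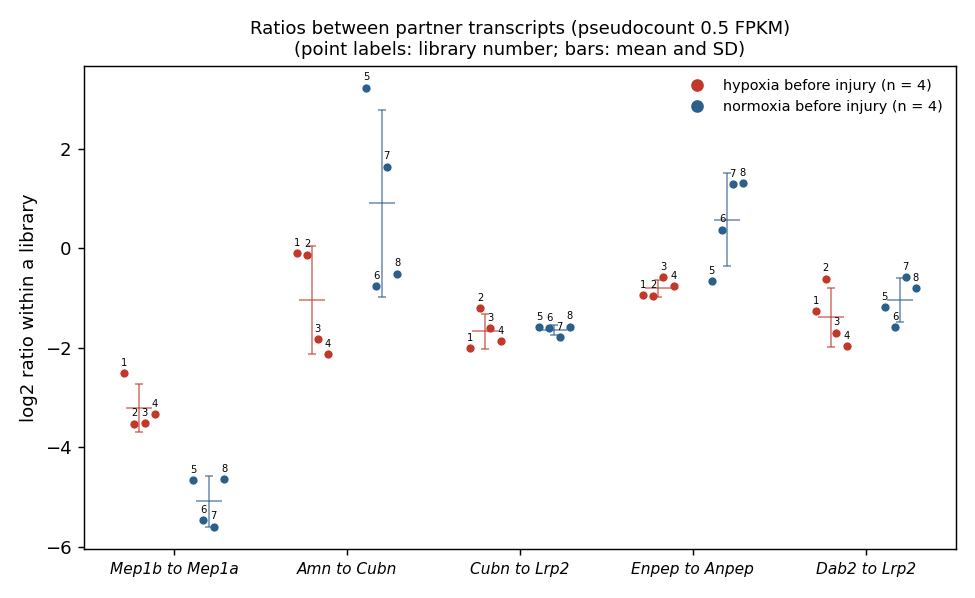
Log2 ratios of 5 pairs of partner transcripts in each of the 8 libraries, with 0.5 FPKM added to each gene. Points are libraries with their number, and bars give the mean and SD. Cubn to Lrp2 is nearly level in the normoxia group, inside a wider hypoxia range, Mep1b to Mep1a does not overlap between them, and Amn to Cubn splits hypoxia libraries 1 and 2 from 3 and 4.

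Within the hypoxia group, as deposited, Lrp2 and Cubn ran opposite to the other 8 genes. Libraries 1 and 2 exceeded libraries 3 and 4 by 1.33 (Mep1a), 1.74 (Mep1b), 0.83 (Anpep), 1.57 (Ggt1) and 1.55 (Amn) on the log2 scale, and by 0.55 to 0.92 for Enpep, Dpp4 and Mme. Lrp2 and Cubn were lower on average in libraries 1 and 2, by -0.45 and -0.31. For Cubn this came mainly from library 1, at 15.9 FPKM. Library 2, at 23.3 FPKM, was nearly level with libraries 3 and 4, at 23.9 and 24.3 FPKM. After TMM scaling the differences were 0.39 (Mep1a), 0.84 (Mep1b), -0.09 (Anpep), 0.64 (Ggt1), 0.66 (Amn), -1.38 (Lrp2) and -1.24 (Cubn). On that scale Enpep differed by -0.35, Dpp4 by -0.02 and Mme by 0.06, so the split seen as deposited did not hold for all genes. These libraries are of 1 treatment group, and the difference between the pairs is given as a description.

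The positive change of Mep1a, Mep1b, Anpep, Mme, Lrp2 and Cubn was kept in all 30 other settings, and that of Dpp4, Enpep and Ggt1 was not.

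**Figure D5:**
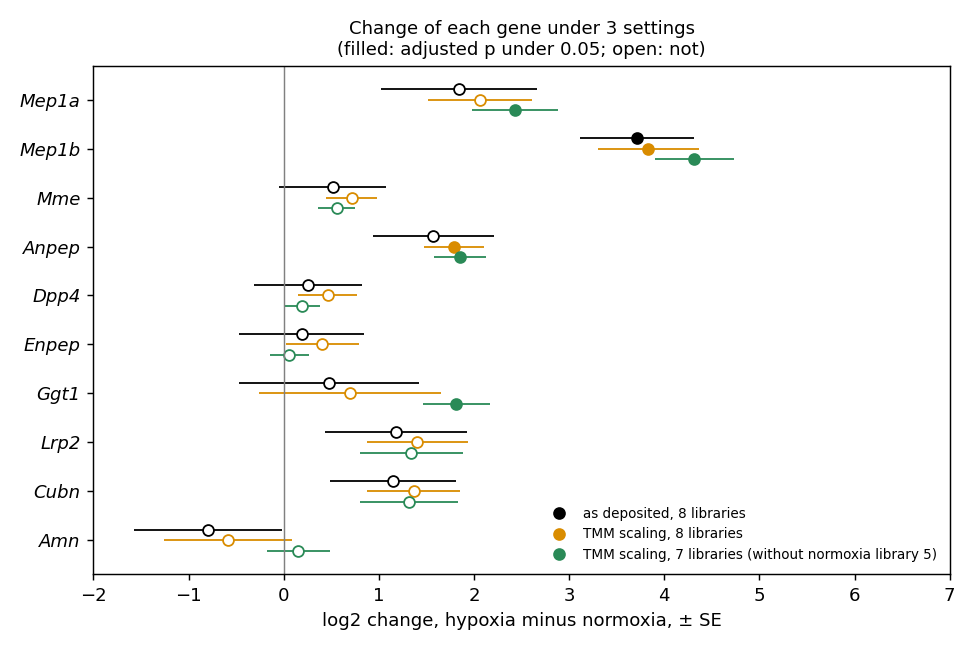
Log2 change of each gene, hypoxia minus normoxia, with its SE (horizontal axis), as deposited, with TMM scaling, and with TMM scaling without normoxia library 5. Filled points have an adjusted p under 0.05 in limma: Mep1b in all 3 settings, Anpep in 2, and Mep1a and Ggt1 in the last.

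The genes around these enzymes and receptors were described by 6 lists. Of 16 tested genes of other brush border peptidases and hydrolases none passed as deposited (median log2 change 0.24). Their smallest p-values were those of Folh1, a carboxypeptidase (1.44 ± 0.67, SE, limma adjusted p = 0.499), and Treh, which encodes the sugar-splitting enzyme trehalase (1.13 ± 0.74, adjusted p = 0.773). None of 9 tested transporters of peptides and amino acids passed either, but all 9 had a positive change (median 0.82). Slc6a20b, a proline transporter gene, averaged 8.76 ± 2.68 and 2.38 ± 1.26 FPKM (SD, n = 4 each; limma adjusted p = 0.155). Slc3a1, which encodes the heavy chain of the cystine transporter, averaged 86.4 ± 49.02 and 25.2 ± 9.56 FPKM (adjusted p = 0.481 in limma). The groups did not overlap for either transporter gene. With TMM scaling 2 of the 9 transporter genes passed as higher, and 5 without normoxia library 5.

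None of 38 tested genes for endocytic adaptors and apical recycling passed (median -0.11). Dab2, which encodes the adaptor that links the tail of megalin to clathrin, had means of 26.8 ± 6.07 FPKM in HxIRI and 15.04 ± 4.31 FPKM in IRI (SD, 4 libraries each), without overlap (log2 change 0.83 ± 0.68, SE, limma adjusted p = 0.876). Its log2 ratio to Lrp2 differed by -0.35 ± 0.37 (SE, n = 4 each; two-sided exact permutation p = 0.343, and 0.429 adjusted over the 5 ratios). The smallest p-values of this list belonged to the trafficking gene Rab32 (log2 change -1.08, limma adjusted p = 0.598) and the clathrin adaptor subunit gene Ap2s1 (-1.62, adjusted p = 0.645), and the latter was at 260.7 FPKM in normoxia library 5 and at 9.74 FPKM in normoxia library 8. Of 11 other lipoprotein receptor family genes none passed (median 0.13), with Lrp4 (0.69, limma adjusted p = 0.691) and Sorl1 (0.75, adjusted p = 0.847) leading. None of 18 microvillus scaffold genes passed (median -0.10), and the leading ones were the actin-capping gene Eps8 (0.62, limma adjusted p = 0.90) and the actin-bundling gene Espn (-0.64, adjusted p = 0.922). When library 5 was left out under TMM scaling, 1 peptidase or hydrolase gene and 2 scaffold genes passed as higher, and no adaptor or lipoprotein receptor gene.

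None of 8 tested transcription factors of proximal tubule identity passed (median 0.16). Ppara, which encodes a nuclear receptor that drives fatty acid oxidation, had a log2 change of 0.70 (limma adjusted p = 0.818). Hnf4a, a nuclear receptor of this tubule, averaged 71.9 ± 43.7 and 42.6 ± 14.9 FPKM (SD, n = 4 each; limma adjusted p = 0.961), and its groups overlapped.

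Markers of tubule segments and of injury were counted in the same way, and those named were chosen after their values were seen, apart from Havcr1. Of 9 markers of the S3 segment, the last part of the proximal tubule, 5 rose (Slc7a13, Slc22a7, Slc22a19, Aqp4 and Cyp7b1), with a median change of 2.59. The count was 1 without normoxia library 7 and 8 with TMM scaling and without normoxia library 5. Over all tested genes 11 of 14071 and 638 of 14414 passed as higher in those settings. Of 7 markers of the thick ascending limb, which lies beyond the proximal tubule, all 7 had a positive change (median 1.52) and 2 rose, Egf by 4.12 and Ptger3 by 2.06 on the log2 scale (limma adjusted p = 0.00344 and 0.0226). With TMM scaling 4 of the 7 rose, and as deposited 1 did without hypoxia library 2 or normoxia library 7. Of all tested genes 170 passed as higher with TMM scaling. As deposited, 26 did without hypoxia library 2 and 11 without normoxia library 7. None of 8 markers of the S1 and S2 segments passed as deposited, with a median of 0.87. With TMM scaling and without normoxia library 5, 2 of them passed as higher (median 1.27). Of 12 markers of injured tubule 4 fell (Krt20, Sox9, Timp1 and Cd44) and none rose, with a median of -2.52. As deposited the count that fell lay between 0, without normoxia library 7, and 7, without hypoxia library 1, and it was 9 with TMM scaling and without normoxia library 5. Over all tested genes 4 of 14071, 155 of 14456 and 608 of 14414 passed as lower in those settings, in that order. Havcr1, which encodes kidney injury molecule 1, had means of 36.6 ± 45.5 FPKM in HxIRI and 232.3 ± 167.1 FPKM in IRI (SD, 4 libraries each). Its change of -3.37 ± 0.94 (SE) missed the threshold (limma adjusted p = 0.0855). The part of these shifts in the values of the brush border genes was not tested.

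The mean of the 10 standardised profiles over the 8 libraries was compared with 10357 other named genes that averaged at least 1 FPKM. The closest were Cyp2j5 (Pearson r = 0.999), Galnt11 (0.984), Macrod2 (0.983), Aldh8a1 (0.982) and Slc3a1 (0.980). Cyp2j5, a cytochrome P450 gene, was at 266.6, 276.9, 122.0 and 135.6 FPKM in hypoxia libraries 1 to 4. These coefficients describe the deposited values of 8 libraries, which share depth and ribosomal share, and no test was made of them. Single members lay at different distances from the mean profile, with r from 0.977 for Anpep and 0.920 for Mep1a down to 0.377 for Ggt1 and 0.0915 for Amn. Each member is itself part of that mean, so these coefficients cannot be set beside those of the outside genes.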

How the data were processed

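Poly(A) RNA of 8 kidneys was sequenced from TruSeq stranded libraries of Trizol-extracted, flash-frozen tissue, per the labels' protocols. HISAT2, StringTie and edgeR are named without versions or roles, per the submitters' processing notes. The authors' build: not given in the sources used here. Per the file headers, the table the authors deposited gives FPKM per gene and library in 2 decimals, with no scaling between libraries recorded. All 34450 identifiers matched GENCODE M21 (GRCm38), which gave symbols, coordinates and exon lengths. Read counts were not used here.

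Genes with a mean of at least 0.5 FPKM (14444) were tested as log2(FPKM + 0.5), unscaled, in R 4.3.3 by limma 3.58.1, with lmFit and a trended eBayes, two-sided, with group as the only factor and a Benjamini-Hochberg adjusted p under 0.05. Simulated data for this comparison (14444 genes) had noise drawn independently for each gene and library. In them 41 of 100 genes given a log2 change of 2 were recovered, and 88 of 100 given a change of 3, with 9 false among 138 calls. Differences that the real libraries share over many genes were not simulated, so these rates need not hold for the real comparison. Ratios of 5 gene pairs were compared by exact permutation over 70 assignments. TMM factors came from the published formula (30% and 5% trimmed) and were used as a scaling only. Fragments were estimated from the commonest low value of single-exon genes of 600 to 3000 bases, as an approximation, so that low genes rest on few fragments.

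Members, lists, tests and alternatives were chosen with earlier results of these data known. Named genes were the 10 members, of each of 6 lists up to 4 that passed or else the 2 with the smallest p, Dab2, Hnf4a and Havcr1, and the 5 genes most like the members' mean profile. Leading genes of each list were thus chosen by p, and a gene the rule named is not reported here. The ribosomal share as a covariate, and TMM scaling with each library other than normoxia library 5 left out, were added after seeing the data.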

Additional observations from a re-analysis of the deposited data

Results flagged for a closer look

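In 3 of 30 groups of 4 libraries examined (10 genes and 5 ratios in each treatment group, log2 scale), 1 library lay farther from the rest than Dixon's critical value for the gap over the range. Chance flags about 1 in 20 groups. For Cubn in the hypoxia group, library 1 was low (15.9 FPKM, gap over range 0.903). For Cubn in the normoxia group, library 6 was high (17.3 FPKM, gap over range 0.864). For the ratio of Cubn to Lrp2 in the normoxia group, library 7 was low (0.277, gap over range 0.839).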

How the results depend on the processing

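Of 30 other settings, 22 were planned and 8 added after seeing the data. The number of brush border genes called higher, 1 as deposited, was 0 without the filter on low values, 2 with TMM scaling, 3 with quantile normalization, 3 with scaling to protein-coding fragments and 2 with length correction, and lay between 0 and 4 when 1 library was left out, with or without TMM scaling or length correction. None was called lower in any setting. Over all genes the count ranged from 0 to 717 higher and from 0 to 869 lower (44 and 87 as deposited); without the filter limma called none, while the unadjusted p was under 0.05 for 665 higher and 1356 lower genes. Mep1b kept its call in 23 of 30 settings; it was lost without the filter (log2 change 3.71), without normoxia library 7 (3.52) and, with TMM scaling, without hypoxia library 2 (3.72), 3 (4.09) or 4 (3.95) or normoxia library 7 (3.44) or 8 (3.52), within a range of 3.31 to 4.32 with 1 library left out (4.14 without normoxia library 5) and of 3.14 to 4.77 over all settings. In the TMM settings that lost the call of Mep1b, between 8 and 12 of all tested genes passed as higher, and 11 did as deposited without normoxia library 7. Anpep passed with TMM scaling (1.79), quantile normalization (1.83), protein-coding scaling (1.74) and length correction (1.72), and spanned 1.31 to 1.97 with 1 library left out. Mep1a passed with quantile normalization (2.22) and protein-coding scaling (2.02), and spanned 1.36 to 2.43. Without normoxia library 5, TMM scaling and length correction gave 1.85 and 1.76 for Anpep, 2.43 and 2.32 for Mep1a and 1.82 and 1.70 for Ggt1 (1.51 as deposited), all past the threshold except the last. Leaving out 1 library gave -0.22 to 1.82 for Ggt1, -1.35 to 0.15 for Amn, -0.08 to 0.63 for Dpp4 and -0.24 to 0.55 for Enpep. Sign changes of Amn (0.15 with TMM scaling, 0.0087 with length correction), Dpp4 (-0.079) and Enpep (-0.24, and -0.034 with length correction) came without normoxia library 5, and that of Ggt1 (-0.22) without normoxia library 8; the cause was not tested. The ratio of Cubn to Lrp2 spanned -0.19 to 0.08, positive without hypoxia library 1 (0.082) or 4 (0.037). The other 4 ratios kept their direction in 12 settings, and that of Mep1b to Mep1a spanned 1.31 to 2.91. None passed, but a ratio that reaches the smallest possible p alone cannot pass after adjustment over the 5 ratios. With length correction, and also without normoxia library 5, Mep1b to Mep1a and Enpep to Anpep both reached it. Their adjusted exact permutation p was then 0.0714, which is also above the threshold. With the hypoxia libraries averaged in pairs none could pass (smallest possible exact permutation p = 0.0667). Averaging the hypoxia libraries in pairs left 1 call, Mep1b (3.74). No paired analysis was possible because the groups share no replicate numbers. Depth limits the normoxia values of Mep1b, which rest on at most 70 estimated fragments.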
